A study of Mus musculus with 38 samples.

Results

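Counts of ribosome footprints on the genes of the proteasome were compared across cultured mouse cortical neurons at rest, after stimulation and after knockdown of the translation initiation factor eIF4G2. The genes were taken by symbol, as the protein-coding genes whose symbol starts with Psm, a letter from a to g and a digit, and 50 of the 21792 protein-coding genes met this rule. They comprised the 7 alpha and 7 beta genes of the constitutive core particle, 3 immunoproteasome genes (Psmb8, Psmb9 and Psmb10), the thymus form Psmb11, the testis form Psma8, 6 ATPase genes (Psmc), 14 Psmd genes, 5 activator genes (Psme), the inhibitor gene Psmf1 and 4 assembly chaperone genes (Psmg). The rule also took Psmc3ip, which is named for an interaction with an ATPase and is not a subunit. Psme2b is a single-exon near copy of Psme2, so its counts are uncertain.

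The proteasome degrades proteins that carry ubiquitin chains. Its core particle is a barrel in which alpha rings form the outer gates and beta rings hold the proteolytic sites on Psmb5, Psmb6 and Psmb7, and the regulatory particle binds substrates, removes ubiquitin and unfolds them with a ring of ATPases. In neurons the proteasome is present in dendrites and spines, where protein degradation takes part in synaptic plasticity.

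The neurons came from cortices of CD-1 mouse embryos and carried a doxycycline-inducible lentivirus for the biotin ligase TurboID. TurboID-PSD95 was directed to dendrites by elements of the PSD95 transcript, whereas Pan-TurboID carried no localization signal. Every culture received cycloheximide for 2 min and then biotin for 30 min according to the labels (the methods give a shorter time for DHPG), and ribosome footprints were sequenced from a portion of the monosome fraction (input) and from the monosomes bound by streptavidin (pulldown). Depolarized cultures received tetrodotoxin and DL-AP5 for 2 h and then 55 mM KCl for 1 h, DHPG cultures received the same blockers and then 100 µM of the glutamate receptor agonist DHPG for 10 min, and knockdown cultures received 20 nM siRNA against eIF4G2 for 72 h. The labels of resting cultures name cycloheximide alone and do not say whether these cultures also received the blockers, so an effect of the blockers may be part of each comparison with rest. The 38 libraries formed 14 groups. The KCl experiment held 24 libraries, with input and pulldown, rest and KCl, and both ligases, at 3 libraries per group. The DHPG experiment held 6 libraries with TurboID-PSD95, and the knockdown held 8 libraries with the same ligase, at rest and after KCl, with 2 libraries per group. A non-targeting siRNA was not analysed here. The descriptions of the DHPG inputs and of the knockdown libraries name the cytosol, whereas their lentivirus field names TurboID-PSD95, and the latter was followed.

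Between 2048604 and 14646402 reads per library fell in the coding sequence (CDS) of the longest transcript of each gene. The footprints of Eif4g2 itself stood at 269 and 269 CPM (counts scaled to a common library size, TMM-normalized) in the resting knockdown inputs against 503, 537 and 550 in resting inputs without siRNA (log2 difference −0.98, edgeR adjusted p = 0.00375). The neuronal marker sum was high in every group, at 4971 to 9620 CPM for 6 genes as group means. The sum of 5 astrocyte markers was 84.4 CPM in DHPG inputs and 99.1 in DHPG pulldowns against group means of 360.3 to 724.8 in the others, and that of 6 microglial markers was 9.89 to 17.3 in the knockdown groups against 1.58 to 3.03 in the others. Fewer cells of a type and less RNA per cell cannot be told apart in these bulk libraries. Library 2 of the depolarized TurboID-PSD95 pulldowns stood apart from libraries 1 and 3 on several measures given below. In each depolarized group of the KCl experiment, library 1 held the smallest part of its mapped reads in the CDS. In the TurboID-PSD95 pulldowns this was 2057107 of 12413197, against 7330161 of 23120125 in library 2 and 3298103 of 8854360 in library 3. Library 1 of these pulldowns also had the lowest core particle share, at 0.222% against 0.281% and 0.268%. Nothing in the labels says that replicates came from separate animals, so the p-values measure the spread between these samples.

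Per kilobase of CDS, the beta ring genes had the highest level of the classes in resting TurboID-PSD95 inputs, with a median of 238.4 CPM per kilobase. The alpha ring followed at 143.8, the ATPases at 119.9 and the Psmd genes at 117.4, whereas the Psmg chaperones reached 40.9 and the activators 37.4. Within the beta ring, the structural subunit genes Psmb1 and Psmb4 stood at 506.9 and 442 CPM per kilobase, and the genes of the catalytic subunits at 238.4 (Psmb7), 224 (Psmb6) and 123.1 (Psmb5). The 6 ATPases lay close together, between 112.8 and 170.8, whereas the alpha ring genes ranged from 55.4 to 343.5. The activator Psme4 was low at 11.8. For Psmd2, a scaffold of the base, the value of 467.7 rests on a longest transcript with a CDS of only 183 nt, and counting on its most abundant transcript lowered it to 148.2. In 40 of the 50 genes the longest transcript was also the one with the highest count.

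Of the immunoproteasome genes, which replace the catalytic subunits in immune cells, Psmb8 and Psmb9 were low. Psmb9 and Psmb8 stood at 1.24 and 1.12 CPM per kilobase in resting TurboID-PSD95 inputs, and Psmb10 at 41.1. As group means, Psmb9 was at most 1.80% of its constitutive counterpart Psmb6 per unit of CDS length. Psmb8 had a total of 179 counts and Psmb9 of 285 over the 38 libraries, Psmb11 had 31 and Psma8 had none. Psmb11 and Psma8 were too low to be tested in any comparison, and of the rest 48 were tested in the KCl experiment and 46 in the DHPG and the knockdown experiments.

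The 14 genes of the core particle took a larger share of footprints after KCl in every comparison. In resting inputs with TurboID-PSD95 they held 0.229%, 0.235% and 0.223% of all CDS counts, and in depolarized inputs 0.308%, 0.332% and 0.335%. With Pan-TurboID the inputs held 0.212%, 0.223% and 0.222% at rest and 0.292%, 0.297% and 0.342% after KCl. In the knockdown the inputs held 0.252% and 0.253% at rest and 0.323% and 0.310% after KCl. Resting and depolarized libraries did not overlap in any of these 3 comparisons. In the TurboID-PSD95 pulldowns the share was 0.191%, 0.185% and 0.205% at rest and 0.222%, 0.281% and 0.268% after KCl. It was 0.180%, 0.185% and 0.193% at rest and 0.269%, 0.251% and 0.273% after KCl in the Pan-TurboID pulldowns, and 0.182% and 0.175% against 0.252% and 0.245% in the knockdown pulldowns. No overlap was seen in the pulldowns either, which came from the same cultures as the inputs. How often sets of other genes separate in this way was not counted. Core genes are short, and the trend with CDS length given below was not removed from these shares. The 20 genes of the ATPases and Psmd moved less in inputs, from 0.299% to 0.323% at rest to 0.324% to 0.355% after KCl over both ligases, and they were lower after KCl in the knockdown inputs, at 0.292% to 0.308% against 0.313% to 0.315%. In the knockdown pulldowns they were higher after KCl, at 0.251% to 0.265% against 0.194% to 0.208%. In the pulldowns without siRNA the libraries overlapped, at 0.252% to 0.260% against 0.254% to 0.314% with TurboID-PSD95 and 0.271% to 0.289% against 0.287% to 0.323% with Pan-TurboID. Fewer ribosomes on other genes and more ribosomes on these genes cannot be told apart in shares.

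**Figure D1:**
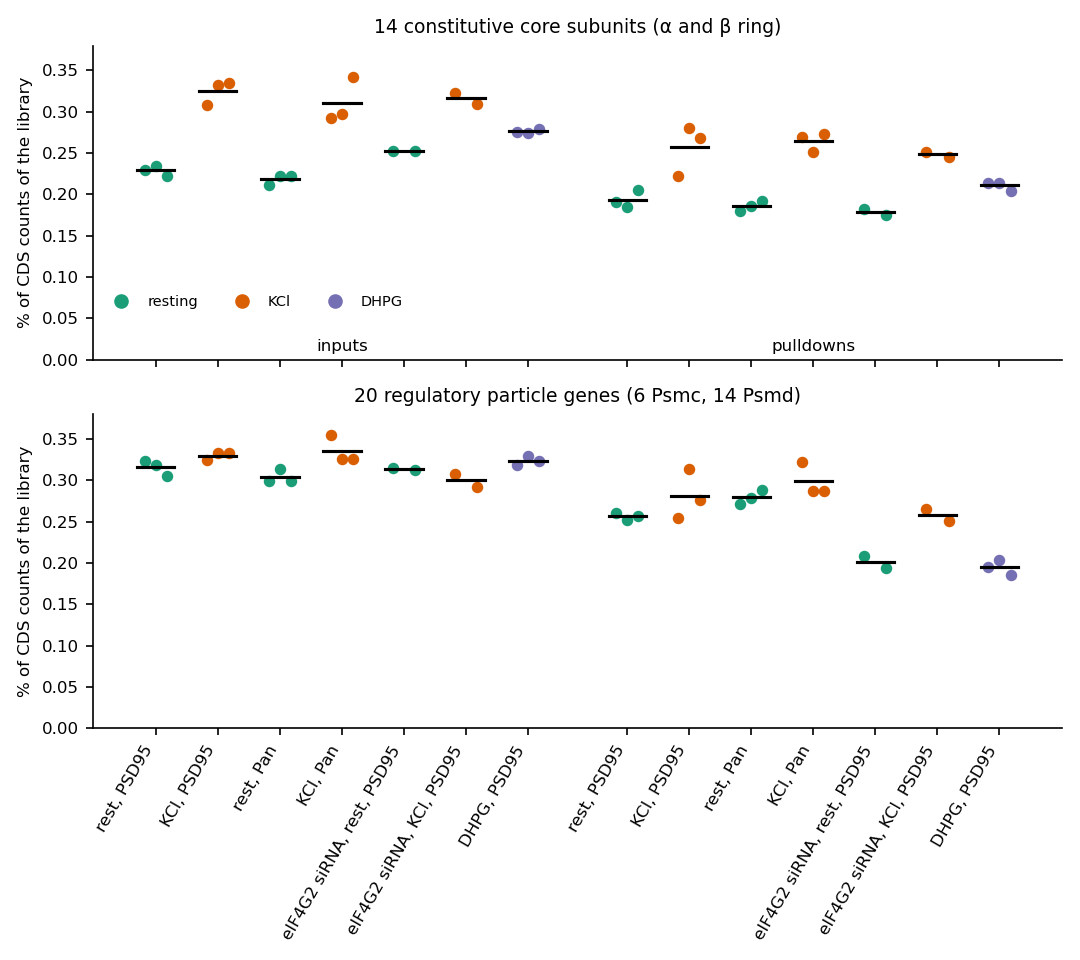
Share of CDS counts (percent) held by the 14 core particle genes and by the 20 ATPase and Psmd genes in each library, by group, with each point 1 library and the bar the group mean. The core particle share was above the resting libraries in every depolarized group, for example 0.308% to 0.335% against 0.223% to 0.235% in TurboID-PSD95 inputs. The shares were not adjusted for CDS length.

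Gene by gene, KCl raised 11 of the 48 members tested in inputs and lowered none, at an edgeR quasi-likelihood false discovery rate (FDR) of 0.05 over 6 depolarized and 6 resting libraries. Among all genes tested, 15.4% passed, 6.32% higher and 9.03% lower, against 22.9% of the members. All 7 genes of the beta ring rose, as did 4 of the 7 alpha genes (Psma2, Psma3, Psma6 and Psma7). None of the 6 ATPases, 14 Psmd genes, 5 activators and 4 Psmg chaperones passed, and their log2 differences were between −0.11 and 0.40 for the ATPases and between −0.08 and 0.56 for the Psmd genes. The median log2 difference was 0.55 for the beta ring, 0.42 for the alpha ring, 0.10 for the ATPases and 0.18 for the Psmd genes, against −0.01 for all genes.

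Psma2, an alpha ring subunit, had the largest difference of those that passed. It stood at 121, 114 and 101 CPM in resting TurboID-PSD95 inputs and at 109, 115 and 118 in resting Pan-TurboID inputs. After KCl it stood at 229, 183 and 189 CPM with TurboID-PSD95 and at 182, 176 and 209.8 with Pan-TurboID. Every depolarized input thus lay above every resting one, and the log2 difference was 0.75 ± 0.14 (SE, adjusted p = 0.000468, edgeR). Psmb2, a structural beta subunit, stood at 164, 139.9 and 153 CPM and at 143, 157 and 136 in the resting inputs of the 2 ligases. It stood at 240.2, 271 and 230.1 and at 283, 224 and 209 after KCl, again without overlap (log2 difference 0.67 ± 0.13, SE, adjusted p = 0.000462, edgeR). Psmb4, another structural beta subunit and the second most abundant per kilobase in its ring, ranged from 311.9 to 399.9 CPM with a median of 338.5 in the 6 resting inputs. In the 6 depolarized inputs it ranged from 471.3 to 628.2 with a median of 539, and its log2 difference was 0.58 ± 0.13 (SE, adjusted p = 0.00192, edgeR).

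The genes of the 3 proteolytic subunits rose by 0.48 to 0.55 on the log2 scale. Psmb5, the subunit with chymotrypsin-like activity, stood at 98.8, 107 and 87.9 CPM in resting TurboID-PSD95 inputs and at 102, 75.3 and 79.7 with Pan-TurboID. After KCl it stood at 148, 135 and 128 CPM and at 119, 142 and 120.2 with the same ligases, without overlap (log2 difference 0.49, adjusted p = 0.0105, edgeR). Psmb7, with trypsin-like activity, stood at 191, 199 and 206 CPM at rest with TurboID-PSD95 and at 153, 179 and 183 with Pan-TurboID, against 251, 302 and 299 and 267, 237 and 297 after KCl. Its difference was 0.55 (adjusted p = 0.00673, edgeR), and the levels did not overlap. Psmb6, with caspase-like activity, stood at 152, 179 and 149.8 CPM at rest with TurboID-PSD95 and at 149, 174 and 141 with Pan-TurboID, against 199, 264 and 207 and 234, 240.2 and 198 after KCl (0.48, adjusted p = 0.0261, edgeR). In 11 of the 48 members (22.9%) all 6 depolarized inputs lay above all 6 resting inputs, against 4.75% of all genes, and in none did they lie below, against 5.83%. The 11 were Psmb1 to Psmb7 with Psma1, Psma2, Psma3 and Psma7. Psma1 did so without passing the FDR, and Psma6 passed while its groups overlapped. Of the CDS of Psmb7, 264 nt or 31.7% overlap exons of Nek6, and 138 nt or 10.2% of that of Psmc3 overlap exons of Slc39a13, both on the opposite strand. On the same strand, 109 nt of Psmb5 overlap the microRNA gene Mir686, 294 nt or 10.3% of the CDS of Psmd1 are shared with Gm21972 and 216 nt or 58.5% of that of Psmg3 with Gm26938, so the counts of Psmg3 are uncertain. Strand use in the counting is not given in the sources used here, so counts there could come from either gene. Named pseudogenes exist for Psmb5, Psmb6 and Psmb7.

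**Figure D2:**
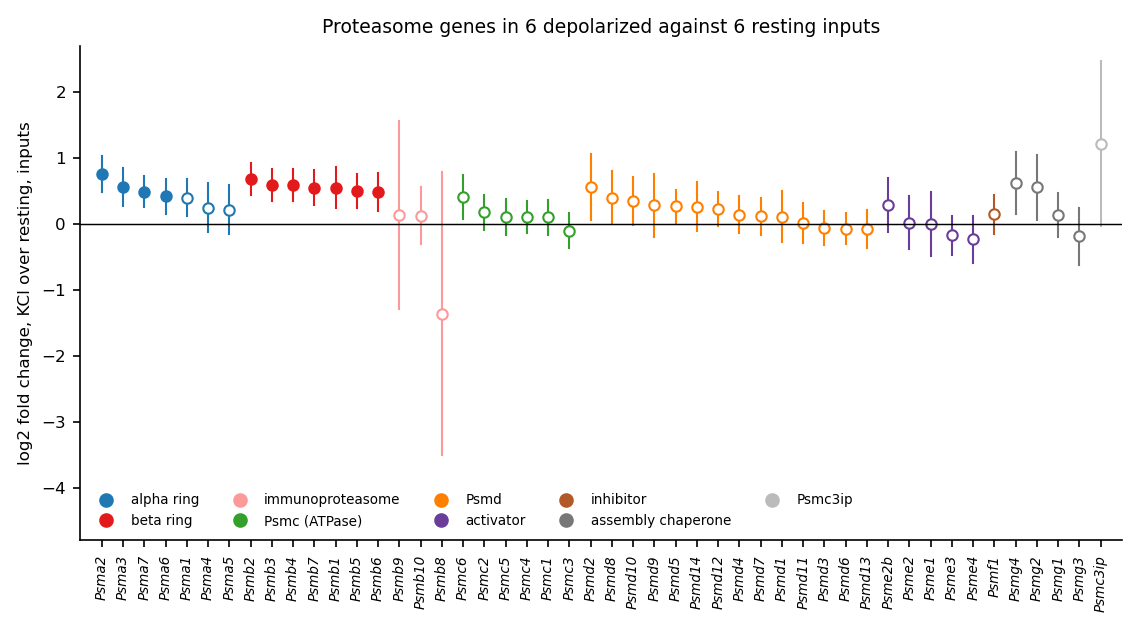
Log2 difference of depolarized over resting inputs for each member tested (vertical axis) by class (horizontal axis), with bars for the 95% interval from edgeR and filled points for genes past the FDR. All 7 beta ring genes lay between 0.48 and 0.67 and passed, whereas the 6 ATPases lay between −0.11 and 0.40 and did not.

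The number of members called was sensitive to the replicates. Without the libraries numbered 1, 2 or 3 it was 12, 7 and 1, while the share of all genes called was 16.2%, 6.93% and 3.91%, and the median difference of the members stayed at 0.26, 0.28 and 0.28. It also moved with CDS length. Core genes are short, with CDS medians of 717 nt for the beta ring and 741 nt for the alpha ring against 1290 nt for the ATPases and 1101 nt for all protein-coding genes. Across all genes tested, the log2 difference with KCl in inputs fell with CDS length (Spearman's rho −0.33 over 13019 genes), and across the 48 members rho was −0.56. Genes are not independent replicates, and these are descriptions. When a smooth trend with CDS length was removed from each library, 5 of 48 members passed, all of them higher. In either direction 13.7% of all genes passed, so that the share of members called in either direction was no longer above that of all genes. All 5 members were core particle genes, and the share of all genes called higher alone is not given for this setting. The members' median was 0.16 against 0.01 for all genes. The 5 were Psmb7 (0.48), Psma2 (0.63), Psmb4 (0.50), Psmb2 (0.49) and Psma3 (0.46).

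**Figure D3:**
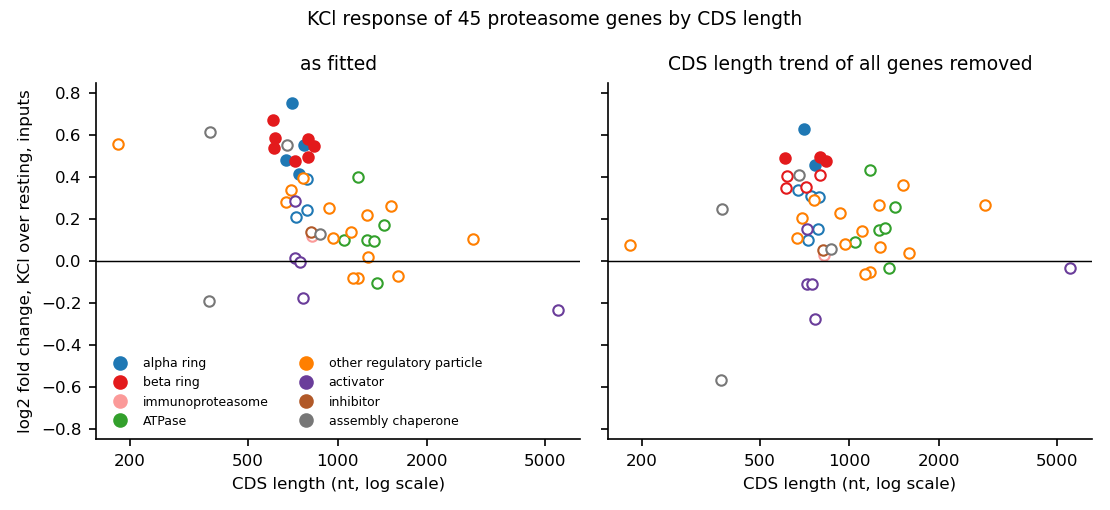
Log2 difference of depolarized over resting inputs (vertical axis) against CDS length in nt (horizontal axis, log scale) for the members tested other than Psmb8, Psmb9 and Psmc3ip, coloured by class, as fitted (left) and with the CDS length trend removed (right), with filled points past the FDR. On the left 11 core particle genes are filled, and on the right the 5 that passed, between 0.46 and 0.63.

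In the TurboID-PSD95 pulldowns, which sample the dendritic side, 4 members rose with KCl and none fell, against 6.6% of all genes called, 3.32% higher and 3.28% lower. They were Psma2 (log2 difference 0.78, adjusted p = 0.0186), Psma7 (0.60, 0.0351), Psmb4 (0.61, 0.0355) and Psmd10 (1.00, 0.0311), all by edgeR. Psma2 stood at 107, 96.7 and 131 CPM at rest and at 204, 187 and 176 after KCl, without overlap. Psmd10, a chaperone of the base known as gankyrin, stood at 12.6, 7.81 and 10.7 CPM at rest and at 13.2, 26.7 and 20.4 after KCl, with library 1 close to the resting level. None of the 4 passed without the libraries numbered 2 or without those numbered 3, and without those numbered 1 the count was 6, while the share of all genes called was 0.85%, 0.689% and 11.2%. With the replicate number as a block the count was 7 (9.76% of all genes), and with the length trend removed it was 0 (5.21%). In Pan-TurboID pulldowns, which sample the whole neuron, 4 members rose and none fell, against 5.03% of all genes called, 1.87% higher and 3.16% lower. These were Psma2 (0.83), Psmb3 (0.71), Psmb4 (0.68) and Psmb2 (0.65). None of the 4 passed without the libraries numbered 1, when 1 other member did (5.48% of all genes), without those numbered 2 or 3, when no member did (1.31% and 0.545%), or with the length trend removed, when 1 other member did (5.14%). The change of the dendritic enrichment with KCl was tested directly, as the difference between pulldown and input after KCl minus that at rest. By the edgeR quasi-likelihood test no member and no other gene passed, while 343 of 13019 genes and 0 of 48 members had an unadjusted p under 0.05, and DESeq2 called no member. The edgeR likelihood ratio test called 2 genes (0.0154%), neither of them a member.

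In the neurons with eIF4G2 siRNA, 5 members rose and 2 fell with KCl in inputs, against 19.3% of all genes called, 8.98% higher and 10.3% lower. Psmb1 stood at 309 and 343 CPM at rest and at 469 and 490.3 after KCl (log2 difference 0.58), Psmb4 rose by 0.54, Psma2 by 0.48, and Psmb7 and Psma7 by 0.37 each. The members that fell were long. Psmd1, the larger scaffold of the base, stood at 359 and 349 CPM at rest and at 286 and 243 after KCl, a fall of 0.40, and Psme4 fell by 0.52. The count was 2 without the first resting input (9.66% of all genes) and 10 without the first resting pulldown (21.5%). With the length trend removed, 2 of 46 members passed, Psmb4 and Psmb1, against 16.3% of all genes.

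The knockdown pulldowns gave a wider set, with 15 members higher and 1 lower after KCl against 22.2% of all genes called, 10.2% higher and 12% lower. Here 5 of the 6 ATPases rose. Psmc6 stood at 91.9 and 63.9 CPM at rest and at 165 and 153 after KCl (log2 difference 0.98), and Psmc4 at 139 and 147 against 225 and 226 (0.64). Psmd14, the subunit that cleaves ubiquitin chains from substrates, rose by 0.71, Psmb2 by 0.80, Psmb4 by 0.73 and Psma4 by 0.90. Psmd1 stood at 381 and 356 CPM at rest and at 659 and 462 after KCl, so that it was higher in the pulldowns (0.58) and lower in the inputs. Psmd10 fell in these pulldowns, from 11.9 and 8.37 CPM to 4.06 and 4.43, by 1.32 on the log2 scale (adjusted p = 0.0282, edgeR). It did not pass by DESeq2 (adjusted p = 0.0627), without the second resting input (0.0517), without the first resting pulldown (0.206) or without the first or second depolarized pulldown (0.113 and 0.0693). The interaction of siRNA and KCl was not tested.

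The 5 comparisons with KCl share no libraries, although input and pulldown came from the same cultures, and 46 members were tested in all of them. The log2 difference was above 0 in all 5 for 20 members, among them all 7 beta genes, and below 0 in all 5 for Psmd13, a lid subunit, Psme3 and Psme4. Psma2 and Psmb4 passed the FDR in all 5. Of all 12143 genes tested in the 5 comparisons, 20.3% were above 0 in all 5, against 43.5% of the members, and 20.7% were below 0 in all 5, against 6.52%. In all 5 comparisons 0.807% of all genes were called higher. In at least 1 comparison 21 of the 46 members (45.7%) were called higher and 3 (6.52%) lower, against 18.8% and 20.1% of all genes.

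Pulldown was compared with input to ask which members were over- or underrepresented on biotinylated ribosomes. TurboID-PSD95 pulldowns of the KCl experiment were set against the mean of the inputs of both ligases, and input values given below are those of TurboID-PSD95. At rest with TurboID-PSD95, 3 members were higher in the pulldown and 16 were lower, against 31.1% of all genes called, 14.7% higher and 16.4% lower. Psmd genes made up 8 of the 16. Psmd10 fell from 28.4, 26.8 and 29.7 CPM in input to 12.6, 7.81 and 10.7 in the pulldown (log2 difference −1.47), and Psmd6, a lid subunit, from 189.6, 201 and 182 to 119, 127 and 118 (−0.64). The others were Psmd8 (−0.93), Psmd11 (−0.74), Psmd13 (−0.66), Psmd4, which holds a ubiquitin receptor (−0.62), Psmd7 (−0.57) and Psmd2 (−1.49). The value of Psmd2 became 0.50 with its highest-count transcript, so its direction depends on the transcript. In the core particle Psmb1 fell from 260.3, 323 and 347 CPM in input to 130.1, 195 and 156 in the pulldown (−0.99), with Psmb7 (−0.62) and Psma7 (−0.56). No other core gene was called lower.

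The 3 members that were higher in the resting dendritic pulldown were Psmg2 (1.36), Psma5 (0.72) and Psme4 (0.61). Psma5, an alpha subunit, stood at 39.5, 39.2 and 42 CPM in input and at 67.8, 52.5 and 73.4 in the pulldown. Psme4, an activator of the core, stood at 64.2, 57.1 and 74.4 CPM in input and at 120.4, 105 and 103 in the pulldown, and Psmg2, a chaperone of alpha ring assembly, at 16.1, 7.98 and 10.8 against 34.4, 18.4 and 29.7. Pulldown and input did not overlap for any of the 3, which were picked because they passed this test. The share of all genes without overlap was counted only for KCl in inputs. In the resting Pan-TurboID pulldown, Psmg2 (1.47) was also called higher, and Psme4 (0.66) lay above input without passing. In the resting TurboID-PSD95 comparison the median of the 48 members was −0.21 against −0.04 for all genes, and −0.11 against 0.01 without the libraries numbered 2. No member was called without the libraries numbered 3, when 0.121% of all genes were called, and 15 and 11 were called without those numbered 1 and 2, against 27.8% and 18.1%. With the length trend removed 7 members were higher and 7 lower, against 19.8% of all genes called.

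After KCl, 11 members were lower in the TurboID-PSD95 pulldown than in input and none was higher, against 18% of all genes called, 11.2% higher and 6.84% lower. With the CDS length trend removed 5 were higher and 6 lower, against 10.7% of all genes called. The 11 were the same 8 Psmd genes, with Psmd2 again on its longest transcript, and Psma7, Psmb1 and Psmb7. Library 2 of these pulldowns differed from the others, with Psmd2 at 118 CPM against 26.5 and 45.3 in libraries 1 and 3, and Psmd8, a lid subunit, at 215 against 60.6 and 106. Without the libraries numbered 2 the count was 13 (22.7% of all genes), without those numbered 1 it was 1 (8.75%) and without those numbered 3 it was 0 (0.129%). With the replicate block it was 15 (25.8%), and with the block within resting and depolarized cultures it was 21 (33.1%), of which 5 were higher.

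The Pan-TurboID pulldowns were compared with their inputs in the same way. At rest 3 members were higher and 3 lower, against 9.6% of all genes called, 4.55% higher and 5.05% lower. After KCl 1 was higher and 4 were lower, against 8.83% of all genes called, 5.19% higher and 3.64% lower. With the replicate block 13 and 10 members were called, against 18.6% and 18.7% of all genes, and without the libraries numbered 2 no member and no other gene was called in either. The lower genes were Psmb1, Psmd2 and Psmd8 at rest, with Psmd6 added after KCl. For Psmd2 the most abundant transcript gave 0.36 and 0.31, so its direction is not settled. Among the members higher at rest were Psmg2 (1.47) and an alpha ring gene (0.87). Psmc5, an ATPase, was higher both at rest and after KCl. It stood at 125, 135 and 118 CPM in resting input and at 248, 283 and 352 in the resting pulldown (log2 difference 1.18 ± 0.20, SE, adjusted p = 0.01, edgeR). After KCl it stood at 142, 143 and 117 CPM in input and at 286, 261 and 336 in the pulldown (1.13). In the TurboID-PSD95 pulldowns it stood at 145, 142 and 194 CPM at rest and at 123, 166 and 196 after KCl, below every Pan-TurboID pulldown. The enrichment of Psmc5 with TurboID-PSD95 minus that with Pan-TurboID was −0.92 ± 0.20 (SE, adjusted p = 0.445, edgeR), which did not pass, although DESeq2 called it. No member differed between the ligases by edgeR, against 0.00768% of all genes.

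**Figure D4:**
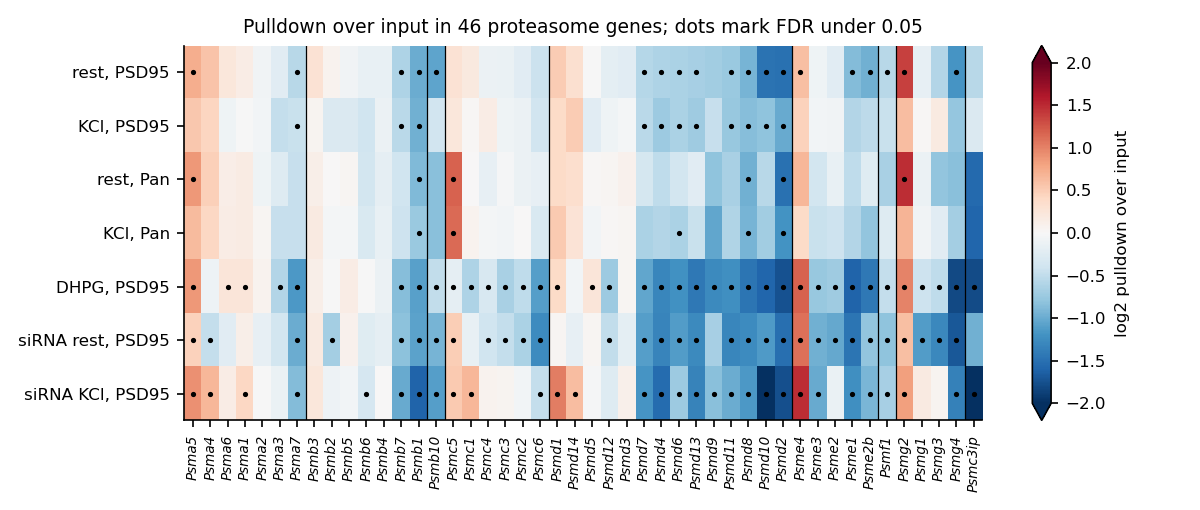
Log2 difference of pulldown over input for each member (columns, by class, without Psmb8, Psmb9 and the untested genes) in the 7 pairs of pulldown and input groups (rows), with colour from lower (blue) to higher (red) and a dot where the FDR was passed. Psmd8 was lower and passed in all 7 rows, between −1.46 and −0.85, and Psmc5 stood in the Pan-TurboID rows at 1.18 and 1.13.

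The DHPG and knockdown experiments gave more calls among members and among all genes. With DHPG 7 members were higher in the pulldown and 30 lower, against 79.8% of all genes called, 40.5% higher and 39.3% lower. With eIF4G2 siRNA 4 were higher and 27 lower at rest, against 45.5% of all genes called, 22.1% higher and 23.4% lower. After KCl in the knockdown 9 were higher and 21 lower, against 48.8%, with 24% higher and 24.8% lower. The balance moved when the CDS length trend was removed, to 14 higher and 23 lower with DHPG, 7 and 17 in the resting knockdown and 16 and 11 in the depolarized knockdown, against 67.4%, 32.9% and 35.1% of all genes called. The median of the members was −0.55, −0.67 and −0.13 in these comparisons, against 0.05, −0.01 and 0.00 for all genes. Without the first depolarized knockdown pulldown the last of these was −0.35 against −0.06. Over the 5 comparisons of TurboID-PSD95 pulldown and input, which share no libraries, 25 of the 46 members tested in all (54.3%) were lower in all 5 and 5 (10.9%) were higher in all 5, against 33% and 31.4% of 11792 genes. The 5 were Psma5, Psmb3, Psmd1, Psme4 and Psmg2. With the CDS length trend removed, Psmd1 was at −0.20 with DHPG and at −0.35 in the resting knockdown. The members called lower in all 5 comparisons were 11, namely Psma7, Psmb1, Psmb7, Psmd2, Psmd4, Psmd6, Psmd7, Psmd8, Psmd10, Psmd11 and Psmd13, or 23.9% of the members against 5.35% of all genes. Psmd2 is counted among them on its longest transcript, whereas its most abundant transcript gave 0.50 and 0.22 at rest and after KCl, 0.57 with DHPG, and −0.01 and 0.30 in the resting and depolarized knockdown. No member was called higher in all 5, against 7.04% of all genes. With the CDS length trend removed, 6 members were called lower after KCl without siRNA, so at most 6 could be called lower in all 5.

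Psmd4 gives an example of the range. Its level fell from 225, 237 and 214 CPM in DHPG input to 82.8, 102 and 95.5 in the pulldown, and from 206 and 194 to 91.5 and 67.8 in the resting knockdown. Psme4 went the other way, from 40.9, 49 and 42.7 CPM in DHPG input to 111, 107 and 89.4 in the pulldown (log2 difference 1.18), and from 56.9 and 63.3 to 132 and 128 in the resting knockdown (1.10). In neither gene did input and pulldown overlap, in comparisons where 79.8% (DHPG) and 45.5% (resting knockdown) of all genes were called. Across all genes the difference of pulldown and input rose with CDS length, with rho of 0.52 at rest with TurboID-PSD95 and 0.62 with DHPG, whereas across the members rho was 0.21 and 0.23.

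The activators Psme1 and Psme2, which together form the interferon-inducible cap of the core, and Psme3, a nuclear activator, had no call with KCl in inputs. Psme1 stood at 79.97, 48.4 and 71.2 CPM in resting TurboID-PSD95 inputs and at 33.8, 30.6 and 37.9 in the pulldowns (log2 difference −0.87), and in DHPG libraries at 51.5, 53.7 and 57.8 against 15.8, 20.6 and 18.1 (−1.60). Its inputs lay above its pulldowns in both. After KCl it stood at 65.1, 84.9 and 56.4 CPM in input and at 14.8, 74.1 and 29.6 in the pulldown, where library 2 reached the level of the inputs, and the difference of −0.58 did not pass. Psme2 stood at 29.3, 18.5 and 22.4 CPM against 17.3, 24.1 and 16.5 at rest, where the groups overlapped. It was lower in the pulldown with DHPG (−0.71) and in the resting knockdown (−1.02). Psme3 stood at 44.7, 52.2 and 51.6 CPM in resting input and at 46.4, 46.2 and 49.1 in the pulldown, and it was lower in the pulldown with DHPG (−0.76) and in the knockdown at rest (−0.97) and after KCl (−1.004).

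The inhibitor Psmf1 stood at 70.7, 83.2 and 77.4 CPM in resting TurboID-PSD95 input and at 48.4, 60.6 and 72 in the pulldown (−0.55). It passed at rest, with DHPG (−0.47) and in the resting and depolarized knockdown (−0.81 and −0.66), each time lower in the pulldown. Psmb10, the immunoproteasome gene with measurable counts, stood at 30.6, 45.3 and 25.5 CPM in resting input and at 15.3, 18.1 and 11.7 in the pulldown (−1.06), without overlap. No immunoproteasome gene passed after KCl with TurboID-PSD95 or in either Pan-TurboID comparison. With DHPG and in the knockdown only 1 of the 3 was tested, and it was lower in the pulldown (−0.49 with DHPG, −0.93 at rest and −1.10 after KCl in the knockdown). Psmb8 and Psmb9 stayed at 2.06 CPM or less in the 3 resting TurboID-PSD95 inputs.

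Footprints on the members also lay at different places along the CDS in the 2 fractions. The place was measured as the mean midpoint of the exon segments of the CDS, weighted by counts, as a percentage of CDS length from its start, for the 40 members with at least 3 segments and at least 50 counts in each group. The measure was added after the tests were seen and is given as a description. In resting TurboID-PSD95 libraries the median member lay at 44.4% in inputs (41.9% to 47.8% over libraries) and at 59.3% in pulldowns (56.2% to 61.8%). In DHPG libraries it lay at 47.8% and 64.8%, in the resting knockdown at 50.0% and 62.0%, and in resting Pan-TurboID libraries at 45.1% and 58.1%. The fractions did not overlap in these 4 pairs, nor in the depolarized TurboID-PSD95 and knockdown libraries. They overlapped in the depolarized Pan-TurboID libraries, at 35.4% to 49.1% in inputs and 48.3% to 61.8% in pulldowns. The median shift of the members from input to pulldown was 13.7 points of CDS length at rest with TurboID-PSD95, with 40 of 40 members later in the pulldown. For the 7297 genes that met the same limits the shift was 9.79 points and 93.6% were later, so most genes shared this direction. The members' shift was between 11.3 and 16.6 points in the 7 pairs of groups and that of all genes between 8.43 and 13.0.

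Individual genes show where the counts went. In Psmb5 the last of 3 CDS segments, of 290 nt, held 18.04% of input counts and 54.2% of pulldown counts over the TurboID-PSD95 resting libraries. In Psmb6 the last of 6 segments, of 143 nt, held 10.4% and 36.9%. In Psme4 the first of 46 segments, of 242 nt, held 33.3% of input and 11.4% of pulldown counts. With KCl the members' counts moved toward the start of the CDS in inputs, with a median shift of −7.21 points with TurboID-PSD95 (1 of 40 members later), −4.61 with Pan-TurboID and −5.19 in the knockdown. For all genes it was −5.03, −3.61 and −3.51 points, and 13.0% were later with TurboID-PSD95. The Pan-TurboID inputs overlapped, at 35.4% to 49.1% after KCl and 44.0% to 46.4% at rest. In the TurboID-PSD95 pulldowns the shift was −9.85 points for the members and −5.77 for all genes. Library 2 of the depolarized pulldowns lay at 44.6% against 64.0% and 53.7% in libraries 1 and 3, and without the libraries numbered 2 the shift was −2.58 points. In the Pan-TurboID pulldowns the shift was −3.96 points, with 4 of 40 members later, against −2.06 points and 30.7% of all genes later. In the knockdown pulldowns it was −0.13 points, with 20 of 40 members later, against −0.12 points and 49.0% of all genes later. The part of these shifts in the comparisons of pulldown and input was not tested.

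**Figure D5:**
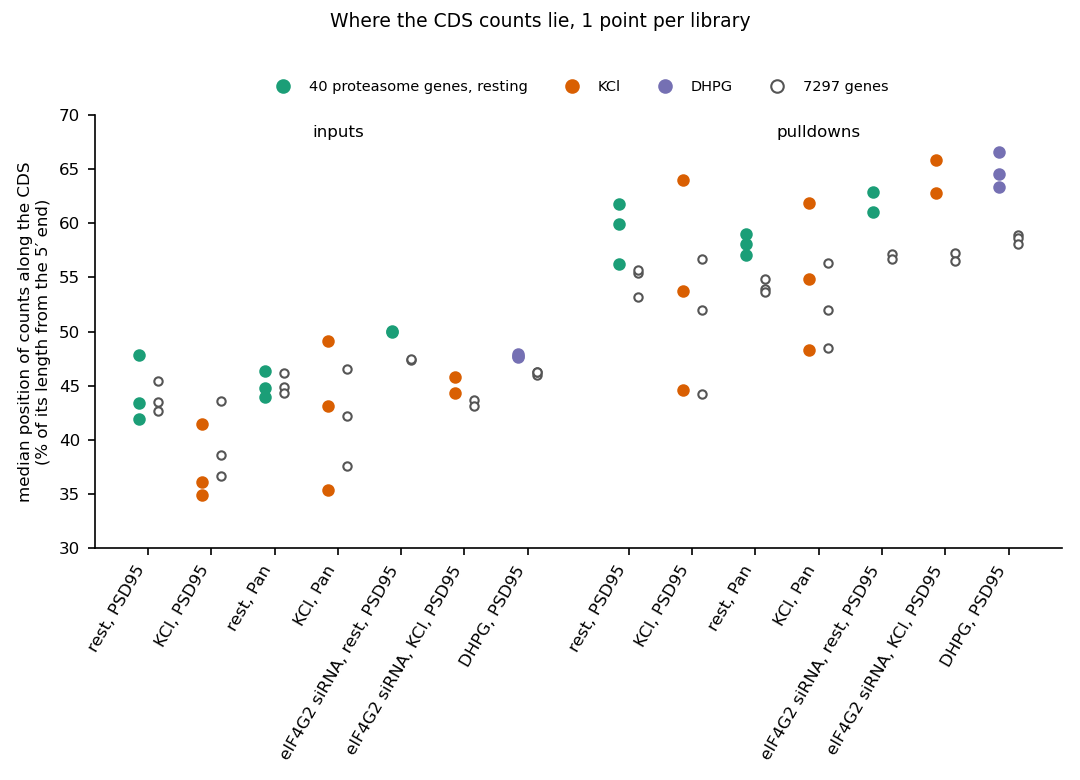
Median place of the counts of 40 members along the CDS (percent of CDS length from its start, vertical axis) in each library, by group, for inputs and pulldowns, with 1 filled point per library and open circles for all 7297 genes measured in the same way. Pulldowns lay later than inputs without overlap in every pair of groups but the depolarized Pan-TurboID pair, for example 56.2% to 61.8% against 41.9% to 47.8% at rest with TurboID-PSD95, and library 2 of the depolarized TurboID-PSD95 pulldowns lay at 44.6%.

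DHPG inputs were compared with resting inputs of the KCl experiment, so that DHPG and experiment cannot be told apart, and the low astrocyte sum of the DHPG libraries stands beside this comparison. Of 46 members, 15 were higher with DHPG and 1 lower, against 32.8% of all genes called, 16.3% higher and 16.5% lower. The alpha ring led, with 6 of 7 genes higher. Psma5 stood at 90.2, 88 and 86.1 CPM with DHPG against 39.5, 39.2 and 42 at rest (log2 difference 1.10, adjusted p = 9.8e-06, edgeR), Psma4 at 109, 109 and 121 against 62.5, 34.4 and 52.1 (1.13), and Psma6 at 184, 191 and 197 against 124, 107 and 89.2 (0.80). No library of the groups overlapped for these 3 genes, a separation that was not counted over all genes. Psma7 did not pass, at 242, 228 and 241 CPM against 217, 243 and 233. In the beta ring Psmb2 (0.72) and Psmb3 (0.50) passed. Psme4 was the member that was lower (−0.59). In the pulldowns 11 members were higher and 16 lower with DHPG than at rest, against 47.7% of all genes called, 21.7% higher and 26% lower, with Psma5 higher (1.30) and 8 of the 14 Psmd genes lower. With the CDS length trend removed the balance turned, to 17 higher and 12 lower (43.9% of all genes called), and the members' median went from −0.12 to 0.07.

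The siRNA libraries were likewise compared with the TurboID-PSD95 libraries of the KCl experiment, and siRNA and experiment cannot be told apart. In resting inputs 3 of 48 members were higher with siRNA and none lower, against 3.9% of all genes called, 1.89% higher and 2.01% lower. In depolarized inputs 1 was higher, against 5.32%, with 3.18% higher and 2.14% lower. Psma5 was higher in both, at 82.4 and 61.1 CPM against 39.5, 39.2 and 42 at rest (0.83, adjusted p = 0.0389) and at 79.5 and 58 against 36, 38.1 and 47.1 after KCl (0.82), by edgeR. Psmb2 (0.61) and Psmg2 (1.15) were higher at rest. Leaving out single knockdown libraries brought the count to 0 or 1 at rest and to 0 after KCl. The resting libraries are the same as in the DHPG comparison, so that the higher Psma5, Psmb2 and Psmg2 in both are not independent. The microglial sum was higher in the knockdown libraries, as given above, and its part was not tested.

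Counts in the 5′ untranslated regions (UTRs) differed widely between members. Their means in resting TurboID-PSD95 inputs were 102.6 CPM for Psmd1 and 79.4 for Psmb5, against 0.93 for Psmd4. Of the 42 members tested, none passed with KCl by edgeR in inputs or in TurboID-PSD95 pulldowns, where 0.442% and 0.275% of all genes passed. The medians were 0.19 in inputs against 0.17 for all genes, and 0.82 in pulldowns against 0.65. Without the libraries numbered 2 both were 0.33 in the pulldowns, and without those numbered 1 the members' median in inputs was 0.07 against 0.18. DESeq2 called no member in either.

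Other genes of the ubiquitin and proteasome pathway were followed as a list of 31 genes found in the files. With KCl in inputs Uchl1, a neuronal deubiquitinase, rose by 0.60, whereas Ubqln4, a shuttle of ubiquitinated proteins, fell by 0.64, and 28 of the 31 did not pass, against 15.4% of all genes called. Nfe2l1, a transcription factor of proteasome genes, had a log2 difference of 0.01. In the TurboID-PSD95 pulldowns Uchl1 (0.63) and Sem1, a small lid subunit (1.14), rose with KCl. In the resting dendritic pulldown 17 of the 31 were lower than in input and 4 higher, with a median of −0.64, against 16.4% lower, 14.7% higher and a median of −0.04 for all genes. Pomp, the chaperone of core particle maturation (−1.55), and Sem1 (−1.38) were among the lower, and Ube3c, a ubiquitin ligase that binds proteasomes (0.98), and Ipo9 (0.90) among the higher. In the Pan-TurboID pulldowns the median of the 31 was also below 0, at −0.47 at rest and −0.48 after KCl. There 5 were lower at rest and 5 after KCl, with 1 and 0 higher. None of the 31 differed between the ligases.

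The promoters of the members were searched for the antioxidant response element bound by the factors Nfe2l1 and Nfe2l2, which control proteasome genes. RefSeq promoters (GRCm38.p6, 250 bases before to 50 after the start) were found for 42 members. The letters TGACNNNGC, searched on both strands, were in 6 of the 42 (14.3%) and in 13.99% of all 27025 promoters, and the cyclic AMP element TGACGTCA was in none of the 42 and in 2.03% of all. Promoters were matched for 4 of the 7 beta ring genes, of which the catalytic Psmb5 and Psmb6 held the first motif, and their sequences are shown with the match in capitals, from chr14:54618026-54618050 on the minus strand and chr11:70525340-70525364 on the plus strand.
Psmb5: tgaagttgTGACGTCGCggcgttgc
Psmb6: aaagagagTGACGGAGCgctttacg
The other 4 matches were in Psmc6, Psmd9, Psmd12 and Psme4, and none of the 7 alpha ring promoters held the motif. A link between the motif and the counts was not tested.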

How the data were processed

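The authors trimmed the reads, removed UMIs, aligned to mm10 with Rsubread and counted 5′ ends of reads of 25 to 100 nt per exon segment with plastid, at an offset of 0. They deposited whole-number counts for the CDS and the 5′ UTR of each transcript, and these counts were the unit used here. Transcripts (67238, of which 99.1% matched GENCODE M21) were summed over segments, and each gene was represented by the CDS of its longest transcript. The 38 libraries held 5906281 to 35643247 mapped reads. Groups followed the GEO labels. edgeR 4.0.16 in R 4.3.3 was run on each experiment with TMM normalization, filterByExpr and the quasi-likelihood F test, with Benjamini-Hochberg adjustment over all genes tested and an FDR of 0.05. CPM used TMM over all 38 libraries. DESeq2 1.42.0, the likelihood ratio test, other size factors, no filter, the replicate block, removal of the CDS length trend (loess, span 0.3), the highest-count transcript and leaving out replicates were alternatives. The test was checked on simulated counts with independent libraries and a fixed spread, a simpler setting without the pairing and the length trend of these data. Named genes were, in each comparison, up to 4 members per direction with the smallest p among those past the FDR, and always Psmb5 to Psmb10, Psme1 to Psme4, Psmd4, Psmc5 and Psmf1. The members and lists were chosen with earlier results of these data known.

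The replicate numbers were checked as pairs, since the study took input and pulldown from 1 sample and processed samples of a number together. In the KCl experiment deviations of input and pulldown of the same culture correlated above 0.1 in 12 of 12 cultures (median r = 0.285), whereas over all 84 pairs with the same number the median was 0.03 and 36 exceeded 0.1. No pair exceeded 0.1 in the DHPG and knockdown experiments. The main tests compared group means without this pairing, and the replicate blocks were run as alternatives. Replicates were not copies of the same counts. The chi-square per gene between them was 8.64 to 47.8 in the KCl experiment. It was 1.48 to 8.94 with DHPG and 2.81 to 4.66 in the knockdown. These values do not tell separate cultures from repeated libraries of the same culture. Files of other kinds were not used here. The values of 1 gene of the ubiquitin pathway list are not reported here.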

Additional observations from a re-analysis of the deposited data

Results flagged for a closer look

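The differences below were picked out because every library of one group lay above, and every library of another lay below, its own reference for the same contrast. The difference between the groups was not tested in any of them, and the share of all genes with such a pattern was not counted. In the KCl contrast of inputs, Psmg2 was above rest with Pan-TurboID and below rest with eIF4G2 siRNA, 1.29 apart on the log2 scale. In the KCl contrast of pulldowns, Psmd10 was above rest with TurboID-PSD95 (0.96) and below rest with eIF4G2 siRNA (−1.26), 2.21 apart. With TurboID-PSD95, depolarized library 1 stood at 13.2 CPM, close to the highest resting library at 12.6.

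For pulldown over input, Psma4 was above in the resting and depolarized TurboID-PSD95, resting Pan-TurboID and depolarized siRNA libraries and below in the resting siRNA libraries, up to 1.20 apart. Psma6 was above with DHPG and in depolarized siRNA libraries and below in resting siRNA libraries, 0.47 apart. Psmb5 was above with DHPG and in resting siRNA libraries and below in depolarized TurboID-PSD95 libraries, 0.50 apart. Psmc1, an ATPase, was above in resting TurboID-PSD95 and depolarized siRNA libraries and below with DHPG, 1.31 apart. Psmc5 was above in 5 pairs of groups and below with DHPG, 1.37 apart. Psmd14 was above in depolarized TurboID-PSD95 and depolarized siRNA libraries and below in resting siRNA libraries, 0.82 apart. With groups of 2 or 3 libraries, separation of this kind can arise from few libraries.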

How the results depend on the processing

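Of 1036 values of the genes chosen by smallest p in each comparison, recomputed under the alternatives, 875 kept their direction and their side of the threshold, 157 kept their direction without passing and 4 reversed. Psmd2 reversed with its highest-count transcript, at 0.50 in the resting dendritic, 0.36 in the resting Pan-TurboID and 0.31 in the depolarized Pan-TurboID comparison of pulldown and input. Outside that selection it also turned in the depolarized dendritic (0.22), DHPG (0.57) and depolarized knockdown (0.30) comparisons. Psmd1 reversed in the DHPG comparison of pulldown and input with the length trend removed, at −0.20, and, outside the selection, in the resting knockdown, at −0.35. The cause was not tested.

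The counts of members called moved by over 1.5 times under these alternatives. With the length trend removed they were 5 for KCl in inputs, 0 in TurboID-PSD95 pulldowns, 1 in Pan-TurboID pulldowns, 2 in knockdown inputs, 3 and 2 for resting and depolarized Pan-TurboID pulldown over input, and 5 for siRNA against none in resting inputs. DESeq2 gave 8 for KCl in Pan-TurboID pulldowns, 11 for depolarized Pan-TurboID pulldown over input, 5 for siRNA against none in resting inputs and 1 between the ligases. With no filter, KCl in TurboID-PSD95 pulldowns gave 2, and with the highest-count transcript, resting Pan-TurboID pulldown over input gave 3.

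The replicate block gave 7 for KCl in TurboID-PSD95 pulldowns and 13 and 10 for resting and depolarized Pan-TurboID pulldown over input. The replicate block within condition, added after the data were seen, gave 14 and 16 for these and 21 for depolarized TurboID-PSD95 pulldown over input. The replicate block moved no other count by over 1.5 times, and it was not run for DHPG or siRNA against the KCl experiment, where the numbers do not pair samples.

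Leaving out replicates in turn gave 1 to 12 for KCl in inputs, 0 to 6 in TurboID-PSD95 pulldowns, 0 to 1 in Pan-TurboID pulldowns, 2 to 10 in knockdown inputs and 11 to 16 in knockdown pulldowns. For pulldown over input it gave 0 to 15 at rest and 0 to 13 after KCl with TurboID-PSD95, 0 to 6 and 0 to 1 with Pan-TurboID, 33 to 39 with DHPG, and 22 to 31 and 23 to 30 in the knockdown. It gave 10 to 12 and 18 to 21 for DHPG inputs and pulldowns against rest, 0 to 1 and 0 to 0 for siRNA against none at rest and after KCl, and 0 to 1 for 5′ UTRs of TurboID-PSD95 pulldowns. The median shift along the CDS in the resting knockdown was 11.8 to 13.6 points. A lone remaining knockdown library was assumed to vary like the others. Depth limits Psmb8, Psmb9 and the 5′ UTRs of some members.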
